A study of Mus musculus with 8 samples.

Results

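Gene expression was compared between primary mouse macrophages labelled LysM-DKO (3 libraries) and wild-type macrophages (WT, 3 libraries). The 6 libraries were chosen by their labels out of 8 in the series. The remaining pair, labelled ABCG1KO, was not compared. It entered the choice of genes tested, the scaling between libraries, the correction for transcript length and GC content, and the shared estimate of the spread between libraries. The design text of the series calls the knockout group epsin double knockout, and every group was kept on a normal diet. The labels give no age, sex, tissue of origin, date or number of animals. They do not say whether libraries of a group came from separate mice. The p-values therefore measure the spread between these libraries, which may be technical in part.

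Epsins are adaptor proteins of clathrin-coated pits. They bind membrane phosphoinositides, bend the membrane and collect ubiquitin-tagged receptors for uptake, among them Notch ligands and lipoprotein receptors. LysM is the promoter of Lyz2, the lysozyme gene of macrophages, and Cre driven from it acts in macrophages, monocytes and neutrophils. In knock-in LysM-Cre mice the recombinase replaces the start of a Lyz2 copy. Whether the WT mice carried Cre or floxed alleles is not given in the sources used here.

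The genes of the label were examined first. Levels are given in CPM (the count of a gene relative to all counts in genes, after scaling between libraries), in the order of replicates 1 to 3. Epn1, which encodes epsin 1, was measured at 230, 203 and 191 CPM in WT and at 169, 183 and 155 CPM in the libraries labelled LysM-DKO. The groups did not overlap, but 81.1% of the WT level remained, and the log2 fold change of -0.30 ± 0.134 (standard error, SE) did not pass the test (edgeR adjusted p = 0.43). Epn2, the epsin 2 gene, stood at 8.18, 8.86 and 4.97 CPM in WT and at 5.67, 13.2 and 6.3 CPM in the libraries labelled LysM-DKO, where only replicate 2 lay above all WT libraries. Epn3 had at most 5 counts in any of these libraries. Gene-level counts do not show which exons were read, and the deleted exons are not given in the sources used here, so these levels neither bear out nor contradict the label. The group is therefore called by its label throughout, and each direction below is that of libraries so labelled.

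Lyz2 was the label gene with the larger difference, at 13000, 15100 and 15700 CPM in WT and at 6180, 8110 and 6270 CPM in the libraries labelled LysM-DKO. Its mean was 46.8% of WT with no overlap between groups, a log2 fold change of -1.09 ± 0.202 (SE) that missed the threshold in edgeR (adjusted p = 0.173) and passed it in DESeq2 (adjusted p = 1.15e-07). Lyz1, the neighbouring lysozyme gene, was lower as well, at 531, 617 and 630 CPM against 366, 376 and 399 CPM. The pair shares sequence (15.4% of 50-base stretches of Lyz2 and 16.1% of those of Lyz1 occur in another gene), so reads could be split between them. Abcg1, the cholesterol exporter named in the study's title, ranged from 345 to 405 CPM in WT and from 208 to 524 CPM in the libraries labelled LysM-DKO, so that the groups overlapped.

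**Figure D1:**
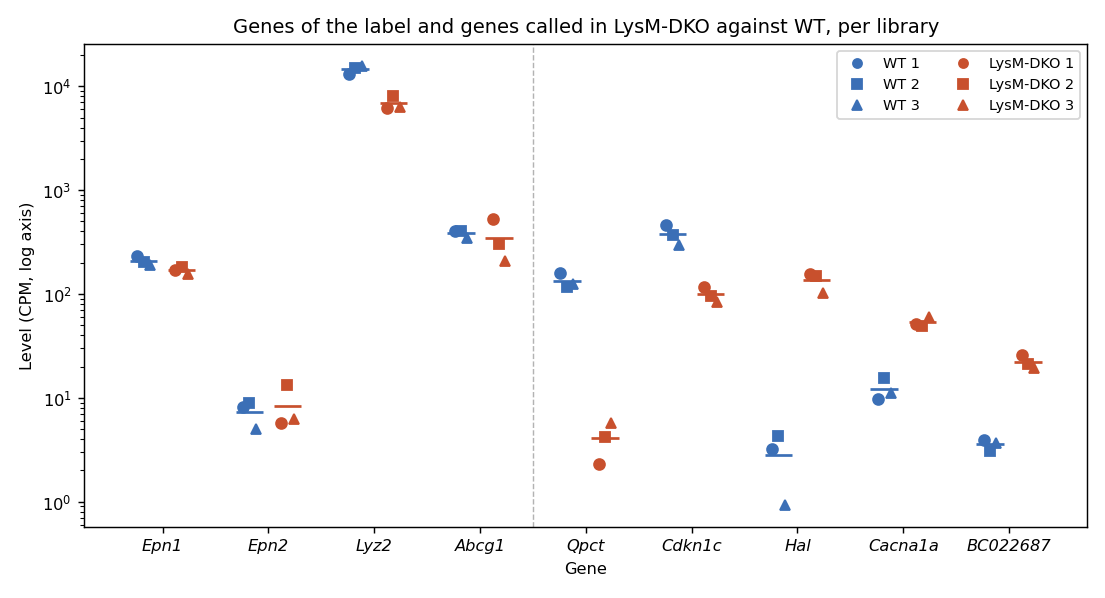
Level of each gene in CPM (log axis) in the 3 WT and 3 LysM-DKO libraries, with a bar at the group mean. Left of the dashed line, Epn2 and Abcg1 overlap between groups and Epn1 lies only slightly lower in LysM-DKO. Right of it, the 5 genes called by edgeR are separated in every library.

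Depth was even, at 37462500 to 41888516 counts in genes per library, and a count of 0 allows up to 3 counts, or 0.0727 to 0.0879 CPM (counting error only). Libraries of a group differed from each other well beyond sampling noise (chi-square per degree of freedom 88.1 to 152), so no library was a duplicate. Macrophage genes were abundant everywhere: Cd68 ranged from 2070 to 2660 CPM and Csf1r, the receptor for the growth factor of macrophages, from 910 to 1650 CPM. Replicate 1 of LysM-DKO alone had Y-linked transcripts (Ddx3y 81.6 CPM) and almost no Xist (0.0485 CPM), whereas Xist stood at 79.1 to 265 CPM in the other 5 libraries. LysM-DKO 1 thus looked male and the other 5 libraries female, so it came from a different animal than LysM-DKO 2 and LysM-DKO 3. The groups differ in sex make-up, and the part of sex in the differences below was not tested. Some markers of other blood cells were at or near 0: Cd3e of T cells reached 0.512 CPM at most, and Ncr1 of NK cells, Epx of eosinophils and S100a9, Mpo and Retnlg of neutrophils had no count. Others were present. Il7r of the T cell list, named after its values were seen, was at 486 to 746 CPM. Csf3r of the neutrophil list was at 59.6 to 131 CPM and Siglecf of the eosinophil list at 2.29 to 29.6 CPM. S100a8 of neutrophils held 33 to 132 counts, and Cd79a of B cells reached 9.55 CPM in WT 2. The macrophage list, of which Lyz2 makes up the largest share, summed to 19300 to 22700 CPM in WT and 12600 to 14700 CPM in the libraries labelled LysM-DKO.

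Of 13821 genes tested, 5 (0.0362%) passed an adjusted p under 0.05: Hal, Cacna1a and BC022687 rose and Qpct and Cdkn1c fell. Before adjustment for the number of genes, 1611 genes had a p under 0.05. A looser description, that all 3 libraries labelled LysM-DKO lie above or below all 3 WT libraries, held upward for 1522 genes (11.0%) and downward for 1380 genes (9.98%). With library sizes alone, without scaling between libraries, the median of all genes moved from 0.02 to 0.17 and the split was 3001 higher and 695 lower. DESeq2, whose spread estimate differs, called 111 genes higher (0.803%) and 188 lower (1.36%), among them all 5 genes called by edgeR. These shares are the background for every count of list members below.

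Qpct had the lowest p-value. It encodes glutaminyl-peptide cyclotransferase, the enzyme that forms pyroglutamate at the start of secreted peptides and chemokines, and lies on chromosome 17 (79051906 to 79090378, plus strand, mm10). Its level was 159, 117 and 124 CPM in WT and 2.33, 4.24 and 5.67 CPM in the libraries labelled LysM-DKO. The mean thus fell from 133 ± 22.5 to 4.08 ± 1.68 CPM (SD, n = 3 each), and the log2 fold change of -5.03 ± 0.421 (SE) had an adjusted p of 0.0279 in edgeR. Every library of the knockout label was far below every WT library, with 96 to 227 counts behind the low values.

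Cdkn1c encodes the cyclin-dependent kinase inhibitor p57 and is an imprinted gene, on chromosome 7 (143458339 to 143461050, minus strand). It was read at 460, 366 and 297 CPM in WT and at 118, 96.1 and 84.6 CPM in the libraries labelled LysM-DKO. On the log2 scale it fell by 1.91 ± 0.199 (SE; adjusted p = 0.043 in edgeR), and 26.6% of the WT level remained. Because 30.7% of its exon bases overlap another annotated gene and 24.9% of its 50-base stretches occur elsewhere, its count is uncertain. Of the other 7 inhibitors of the cell cycle, Cdkn2c (p18) lay apart lower too, at 18.7, 9.80 and 9.58 against 4.65, 8.29 and 8.15 CPM (edgeR adjusted p = 0.443), and 6 overlapped. Among those, Cdkn1a (p21) was at 125 to 148 CPM in WT and 119 to 193 CPM in the other group, and Cdkn1b (p27) at 30.8 to 42.7 CPM and 23.7 to 37.6 CPM. The difference in change between these genes was not tested.

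Hal encodes histidine ammonia-lyase, the first enzyme of histidine breakdown, best known from liver and skin, on chromosome 10 (93488768 to 93519304, plus strand). WT libraries held 3.19, 4.31 and 0.932 CPM, and the libraries labelled LysM-DKO held 157, 149 and 103 CPM. This was the largest fold among the 5 called genes: the mean rose 48.7-fold, from 2.81 ± 1.72 to 137 ± 29.2 CPM (SD, n = 3 each; log2 fold change 5.61 ± 0.568 SE, edgeR adjusted p = 0.043). Amdhd1, which encodes a later enzyme of the same pathway, lies 4033 bases away on the opposite strand. It was almost silent in WT (0.0586, 0 and 0.285 CPM) and higher in all libraries labelled LysM-DKO (3.25, 1.49 and 2.12 CPM), with an adjusted p of 0.289 in edgeR and 0.00293 in DESeq2. Uroc1 and Ftcd, the other enzymes of the pathway, had at most 1 count per library. Hnmt, which inactivates histamine, overlapped at 18.7 to 37.7 CPM in WT and 17.4 to 25.3 CPM in the libraries labelled LysM-DKO.

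Cacna1a encodes the pore of the P/Q-type voltage-gated calcium channel, known from neurons, on chromosome 8 (84388440 to 84640246, plus strand). It was measured at 9.67, 15.5 and 11.1 CPM in WT and at 51.9, 48.9 and 60.2 CPM in the libraries labelled LysM-DKO, a 4.44-fold rise (log2 fold change 2.15 ± 0.242 SE, edgeR adjusted p = 0.043). BC022687 rose 6.22-fold, from 3.9, 3.09 and 3.68 CPM to 25.8, 21.2 and 19.4 CPM (log2 fold change 2.64 ± 0.296 SE, edgeR adjusted p = 0.043). The calls depended on single libraries: without WT 2, LysM-DKO 2 or LysM-DKO 3 no gene passed, without WT 1 the calls were 2 other genes, and 3 of the 5 were called without WT 3 and 1 without LysM-DKO 1. The fold changes themselves kept their size, that of Qpct between -5.34 and -4.76 and that of Hal between 5.18 and 6.03.

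**Figure D2:**
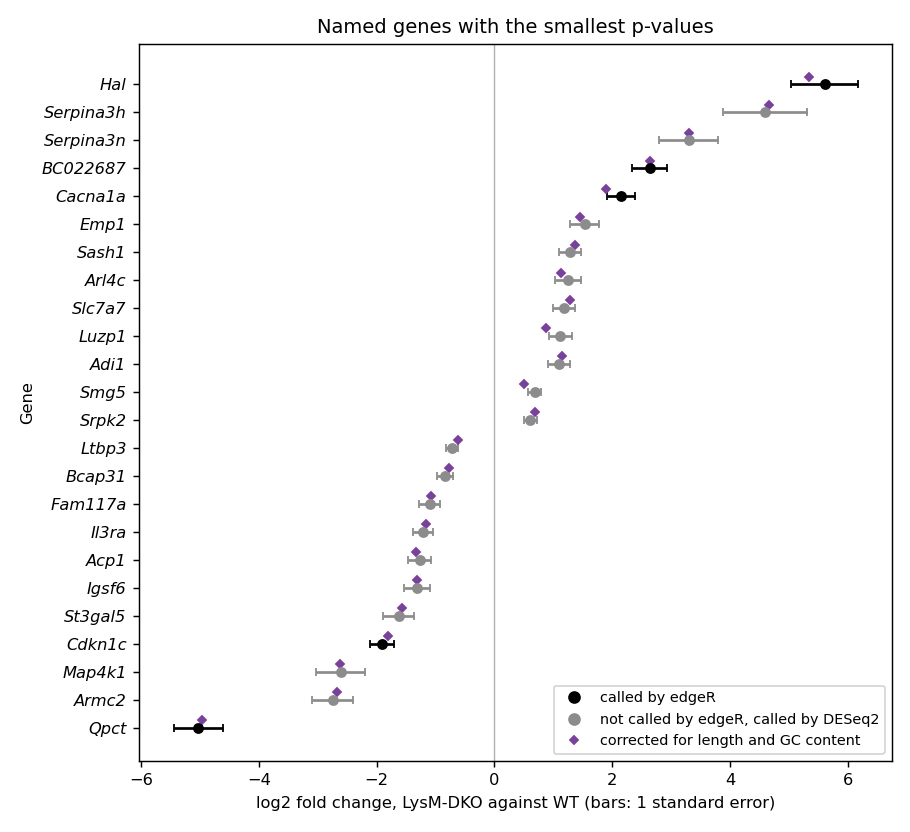
Log2 fold change (LysM-DKO against WT) with 1 SE for the 5 called genes (black) and for further genes named by rule (grey), with the value after correction for transcript length and GC content (purple diamonds). Hal and Qpct lie at the extremes at 5.61 and -5.03, and no gene plotted here changes sign under the correction.

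With these 5 included, 216 genes did not overlap between groups, reached 10 CPM, were called by DESeq2 and kept their sign when any library was left out. Of the 216, 80 were higher and 136 lower. Beyond the 5, genes among the 10 with the smallest edgeR p on each side are described here. Their edgeR adjusted p-values were 0.139 to 0.17 among the higher and 0.0705 to 0.16 among the lower, so none passed edgeR's threshold. On the higher side, Sash1, a scaffold of signalling complexes, stood at 103, 129 and 127 CPM in WT and at 268, 369 and 240 CPM in the libraries labelled LysM-DKO. Serpina3n and Serpina3h, secreted serine protease inhibitors of 1 gene cluster, were at 1.33 to 2.34 against 15.6 to 20.8 CPM and at 0.155 to 0.828 against 7.41 to 15.7 CPM. Because 21.9% of the 50-base stretches of Serpina3h occur in another gene, reads of this cluster could be split. Slc7a7, which exports cationic amino acids, was at 28.6 to 30.5 against 50 to 86.1 CPM, a tight WT range well below the other group.

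Among the remaining higher genes, Emp1, a membrane protein of the tetraspan type, was at 250 to 427 against 720 to 1020 CPM. Arl4c, a small GTPase and a known target of the oxysterol receptor LXR, was at 47.4 to 62.6 against 111 to 162 CPM. Adi1, an enzyme of methionine salvage, stood at 2.15 times WT, and the nonsense-mediated decay factor Smg5 and the splicing factor kinase Srpk2 stood at 1.60 and 1.52 times WT. Luzp1, a cytoskeletal leucine zipper protein, was at 16.1 to 22.3 against 34.2 to 51.3 CPM.

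On the lower side, Map4k1, a kinase that restrains immune receptor signalling, stood at 46.9, 40.7 and 31.8 CPM in WT and at 10.1, 2.88 and 6.55 CPM in the libraries labelled LysM-DKO. Armc2 was at 12.5 to 23.6 against 2.46 to 3.30 CPM, the lowest adjusted p of these lower genes (0.0705). St3gal5, which makes the ganglioside GM3, was at 53.0 to 63.9 against 11.1 to 24.2 CPM. Il3ra, the alpha chain of the interleukin-3 receptor, was at 43.3% of WT, and Igsf6, an immunoglobulin-type membrane protein of myeloid cells, at 40.2%. Acp1, a small phosphatase, was at 41.6% of WT, with 26.1% of the 50-base stretches of Acp1 found in another gene. Ltbp3, which tethers latent TGF-beta, had narrow ranges on both sides, 206 to 229 against 127 to 134 CPM. Bcap31, an export factor of the endoplasmic reticulum, was at 335 to 353 against 164 to 212 CPM, and Fam117a at 46.7% of WT.

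Transcript length moved with the groups across all genes. Genes were put into 10 bins of nearly equal size by length. In the bin of shortest genes the median difference was -0.13 log2 units, and 20.6% of genes lay apart lower against 7.39% higher. In the bin of longest genes the median was 0.27, and 26.5% lay apart higher against 2.02% lower. WT 1 had the steepest trend: its longest genes were 0.41 log2 units below the 6-library mean, while WT 2 and WT 3 were within 0.012 of it and the libraries labelled LysM-DKO lay 0.078 to 0.20 above it. The 5 abundant genes that set WT 1 apart were all low in it and included Cbl, a ubiquitin ligase (21.1 CPM against 80.3 to 145), Med12 (30.7 against 73.4 to 88.3) and Ago2 (44.7 against 98.3 to 177). After correction for length and GC content the bins had medians of -0.019 to 0.012. Qpct was then the only gene called by edgeR, with an adjusted p of 0.0489. The part of length in other results was not tested beyond this correction, whose effect on the gene lists is given beside the main ones below.

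**Figure D3:**
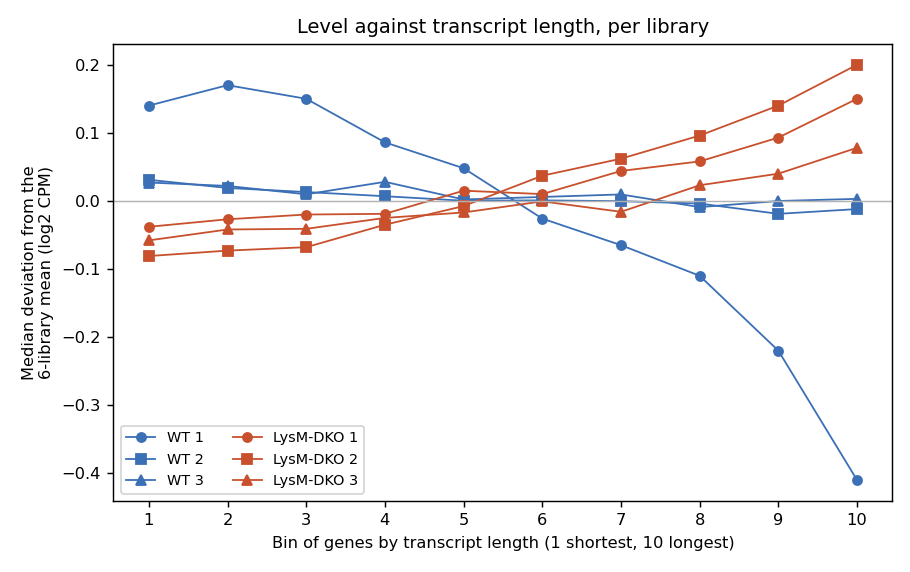
Median deviation of genes from their mean over the 6 libraries (log2 CPM, vertical) by bin of transcript length (horizontal), 1 line per library. WT 1 falls to -0.41 in the longest bin, WT 2 and WT 3 stay near 0, and the 3 LysM-DKO lines end between 0.078 and 0.20.

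The endocytic machinery in which epsins act was nearly level. Of 33 clathrin endocytosis genes, 20 were higher and 13 lower, 6 lay apart higher and 3 apart lower, and the median of their log2 fold changes was 0.06 (0.02 over all genes). After correction for length the median was 0.01, with 4 apart higher. No member was called by edgeR or DESeq2. The clathrin heavy chain Cltc was at 599, 767 and 768 CPM in WT and at 692, 729 and 829 CPM in the libraries labelled LysM-DKO, and the light chains Clta and Cltb overlapped as well. Among the members with the smallest p were Aak1 and Necap1, a kinase and a partner of the AP2 adaptor, which were higher (30.2 to 53.8 against 57.7 to 94.4 CPM and 52.6 to 60.3 against 69.1 to 91.3 CPM).

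Ligands and receptors of the Notch pathway, cargo of epsins, were mostly above WT: 15 of 19 tested members were higher, with a median of 0.27. This median was 0.09 after correction for length and 0.14 without LysM-DKO 1, and only Mib1, a ubiquitin ligase for Notch ligands, lay apart (15.4, 32.4 and 36.7 against 47.1, 43.8 and 43.8 CPM). Notch1 and Notch2 were lowest in WT 1 (22.5 and 85.4 CPM) and overlapped between the groups. None of the 19 was called by either tool.

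Genes of lysosomes were lower with little exception. Of 24 lysosomal hydrolases and membrane proteins, 23 were lower, 11 lay apart lower and none apart higher, with a median of -0.29. The median deviation of the list was 0.26, 0.09 and 0.09 in WT and -0.07, -0.16 and -0.22 in the libraries labelled LysM-DKO, without overlap, and after correction for length it was again lower without overlap (median -0.27). None of the 24 was called by edgeR, and 4 were called lower by DESeq2. Glb1, the lysosomal beta-galactosidase, had the widest gap, with 199, 357 and 110 CPM in WT and 33.6, 50.8 and 78.5 CPM in the libraries labelled LysM-DKO. Its log2 fold change was -2.03 ± 0.461 (SE), with an adjusted p of 0.27 in edgeR and 0.000243 in DESeq2.

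Cathepsins L and S, proteases of antigen processing and matrix breakdown, were lower in every library: Ctsl was at 4530, 8820 and 5450 against 2610, 3880 and 2830 CPM, and Ctss at 9500, 7030 and 8100 against 5420, 4980 and 5470 CPM. The lysosomal membrane proteins Lamp1 (2910 to 3430 against 2330 to 2520 CPM) and Lamp2 (845 to 1110 against 652 to 700 CPM) lay apart too. Ctsd was only slightly lower, at 26600 to 30700 against 21400 to 25900 CPM. Of the proton pump that acidifies lysosomes, 14 of 16 V-ATPase genes were lower, 6 lay apart lower, and the median was -0.26 (-0.20 corrected for length, -0.14 without WT 1). Of these genes 0 were called by edgeR and 1 by DESeq2. Unlike the lysosomal list, the V-ATPase list overlapped between groups, also after correction for length. Its deviation was 0.29, -0.04 and 0.14 in WT and 0.06, -0.26 and -0.11 in the libraries labelled LysM-DKO. Its most separated member, Atp6v1e1, was at 387 to 474 against 185 to 323 CPM.

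Many lysosomal promoters carry the CLEAR box, the letters to which the factor TFEB is known to bind. It was searched as TCACGTGA, a palindrome that reads alike on both strands, in RefSeq promoter windows (250 bases before to 50 after the start, GRCm38.p6, the build called mm10). Of the 20 lysosomal genes with a window, 3 held it (Ctsa, Ctsd and Mcoln1), as did 3 of 11 V-ATPase genes, against 2.14% of tested genes with a window and 0.974% of all windows. The stretches before the start are shown for the 3 lysosomal genes because each of them also lay apart lower, with the box in capitals, at chr2:164833720-164833772 (plus strand), chr7:142387879-142387966 (minus strand) and chr8:3500433-3500518 (plus strand).
Ctsa: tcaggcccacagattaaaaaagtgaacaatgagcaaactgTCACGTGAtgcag
Ctsd: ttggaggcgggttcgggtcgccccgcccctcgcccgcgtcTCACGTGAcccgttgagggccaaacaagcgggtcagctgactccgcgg
Mcoln1: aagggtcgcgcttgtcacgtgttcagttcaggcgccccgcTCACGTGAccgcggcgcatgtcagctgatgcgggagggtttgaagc
A match describes the letters in this window and not binding. Mcoln1, the lysosomal calcium channel, was at 83.3 to 95.0 CPM in WT and 65.0 to 75.6 CPM in the libraries labelled LysM-DKO, and Ctsa at 1990 to 2160 against 1670 to 1800 CPM. Tfeb itself overlapped between groups. The V-ATPase gene Atp6v1a, which also holds the box before its start, overlapped too (961 to 1200 against 932 to 1280 CPM). Whether genes with the box differ from genes without it was not tested. Ctsa, Mcoln1, Tfeb and Atp6v1a were named after their values were seen.

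Cholesterol synthesis genes were lower throughout. All 20 enzymes of the pathway were lower, 7 lay apart lower and the median was -0.67 (-0.60 corrected for length, with 4 apart). No member was called by edgeR and 1, Mvd, by DESeq2. The deviation of the list was highest in WT 1 (0.76) against 0.17 and 0.03 in WT 2 and WT 3, and overlapped with the libraries labelled LysM-DKO (-0.32, -0.58 and 0.12), of which replicate 3 was the highest. Without WT 1 the median was -0.36, and the part of WT 1 in the list was not tested further. Mvd, which makes isopentenyl diphosphate, was at 63.5, 45.6 and 31.4 CPM in WT and at 24.4, 20.2 and 24.5 CPM in the libraries labelled LysM-DKO. Sc5d and Msmo1, enzymes of late sterol steps, were at 50 to 110 against 39.6 to 48.8 CPM and at 136 to 211 against 75.0 to 113 CPM.

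Among regulators of sterol supply, Insig1, which retains the sterol sensor in the endoplasmic reticulum, lay apart lower at 98.7 to 136 against 66.9 to 84.9 CPM. Srebf2, the transcription factor that drives this pathway, and Scap, its escort, overlapped between groups. Mylip, a ubiquitin ligase induced by LXR, lay apart higher (28 to 35.6 against 37.4 to 72.6 CPM). None of these was called by either tool. The sterol response element, searched as TCACNCCAC on both strands, was found in 1 of 15 sterol synthesis genes with a window, against 1.39% of tested genes. It is shown in capitals for that gene, whose level overlapped between groups, at chr13:119690174-119690262 (plus strand).
Hmgcs1: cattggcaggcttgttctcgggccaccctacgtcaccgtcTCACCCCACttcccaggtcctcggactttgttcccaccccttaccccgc

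Handling of lipids was lower at several genes. All 13 genes of the lipid-associated macrophage signature were lower, 4 of them apart, with a median of -0.52 (-0.49 corrected for length) and no overlap of the list between libraries (0.47, 0.10 and 0.35 against -0.07, -0.59 and -0.17). None was called by edgeR and 2 by DESeq2. Fabp5, a fatty acid carrier, was at 1830, 1340 and 1480 against 952, 698 and 1000 CPM (log2 fold change -0.81 ± 0.192 SE, edgeR adjusted p = 0.27). Itgax, which encodes CD11c, was at 1180, 2040 and 2380 against 647, 434 and 956 CPM. Gpnmb, a lysosomal glycoprotein of lipid-laden macrophages, lay apart by a smaller margin (24100 to 32300 against 17500 to 23500 CPM), and Trem2 and Spp1 overlapped.

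Fatty acid oxidation genes were lower for 13 of 17 tested members, 4 of them apart (3 corrected for length), with a median of -0.20 that was -0.12 without LysM-DKO 2. The list medians of the groups barely cleared each other, at 0.27, 0.06 and 0.08 in WT and 0.05, -0.12 and -0.11 in the libraries labelled LysM-DKO. Acadl, a dehydrogenase of long-chain fatty acids, was at 163, 130 and 114 against 90.9, 66.6 and 67.3 CPM (edgeR adjusted p = 0.224, DESeq2 adjusted p = 0.00418). Slc25a20, the carnitine carrier of mitochondria, was at 29.5 to 34.4 against 21.3 to 24.2 CPM. Cpt1a, which commits fatty acids to oxidation, overlapped between groups (98.5 to 152 against 139 to 196 CPM). In fatty acid synthesis, Scd2, a desaturase, was at 302, 196 and 67.2 against 59.6, 61.3 and 65.8 CPM, so that WT 3 lay next to the other group, while Fasn overlapped. Lpin1, a phosphatidate phosphatase, was at 64.3 to 80.7 against 18.3 to 43.8 CPM.

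Of the genes that move cholesterol through and out of cells, 7 of 12 were lower, 3 lay apart lower and 1 apart higher (median -0.19). After correction for length 11 of 12 were lower and 2 lay apart lower. Leaving out LysM-DKO 1 gave a median of -0.36, and leaving out LysM-DKO 3 one of -0.01. Npc2, which hands cholesterol to the lysosomal membrane, was at 2140, 2110 and 1880 against 1380, 1190 and 1380 CPM, or -0.63 ± 0.148 (SE) on the log2 scale (adjusted p = 0.27 in edgeR and 0.000504 in DESeq2). Scarb1, the HDL receptor, was at 105 to 123 against 59.1 to 85.6 CPM. Ch25h, which makes 25-hydroxycholesterol, lay apart higher at a low level (1.38, 1.10 and 1.04 against 4.41, 5.51 and 2.30 CPM). Apoe was apart in 1 library only: LysM-DKO 3 held 1550 CPM and the other 5 libraries 11100 to 16100 CPM. Abca1 overlapped at 195 to 473 against 177 to 448 CPM. LXR targets did not share a direction, with 9 of 14 lower, 2 apart on each side and a median of -0.11 that was 0.04 with library sizes alone, -0.24 without LysM-DKO 1 and -0.01 without LysM-DKO 3.

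**Figure D4:**
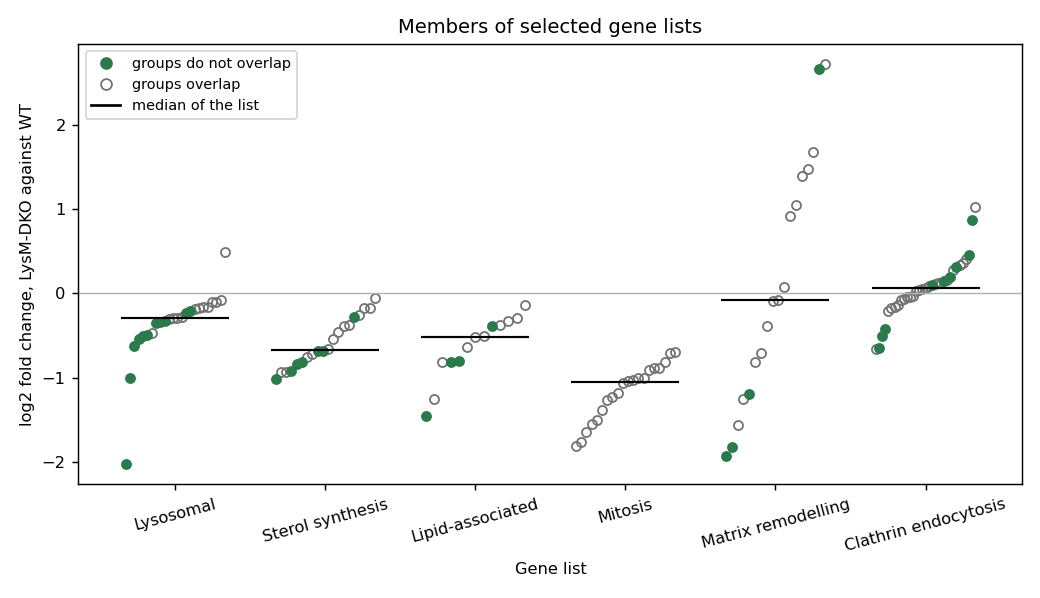
Log2 fold change (LysM-DKO against WT) of every tested member of 6 gene lists. Filled points are genes whose groups do not overlap, and the bar is the median of the list. Lysosomal, sterol synthesis, lipid-associated and mitosis members lie almost all below 0 (medians -0.29, -0.67, -0.52 and -1.05), but no mitosis gene lies apart, and the clathrin list is centred at 0.06.

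Among stress response genes, Atf4, Trib3, Chac1, Ddit3 and Asns were higher, and most chaperones of the endoplasmic reticulum overlapped. Over the unfolded protein and integrated stress list, 11 of 22 genes were higher and 11 lower (median 0.02), with 7 apart higher (5 after correction for length) and 1 apart lower. None was called by edgeR and 1, Trib3, was called by DESeq2. Trib3, a pseudokinase induced by Atf4, was at 4.34, 3.37 and 4.17 CPM in WT and at 9.72, 20.5 and 8.15 CPM in the libraries labelled LysM-DKO (log2 fold change 1.69 ± 0.373 SE, edgeR adjusted p = 0.263, DESeq2 adjusted p = 0.00313). Atf4 itself was at 183, 136 and 117 against 222, 210 and 215 CPM. Chac1, which degrades glutathione, was at 0.205 to 0.497 against 1.02 to 2.17 CPM, and Ddit3, the factor CHOP, at 23.8 to 30.0 against 30.0 to 32.6 CPM, a barely separated pair. Asns, asparagine synthetase, named after its values were seen, was at 8.01 to 10.1 against 12.6 to 24.7 CPM. The chaperone Hspa5 (BiP) overlapped at 588 to 1020 against 655 to 1100 CPM. Dnajc3, a co-chaperone named after its values were seen, lay narrowly apart higher (118 to 133 against 135 to 151 CPM), with a log2 fold change of 0.19 that was -0.04 after correction for length. Atf3, another stress factor of the same family, was lower at 612 to 622 against 324 to 555 CPM.

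The element through which Atf4 is known to act, CARE, was searched as TGATGNAA on both strands. It was present in 5 of 20 list genes with a window, against 2.74% of tested genes and 3.97% of all windows. It is shown in capitals for the 2 genes that also lay apart higher and hold it before the start, at chr2:119351009-119351096 (plus strand, where the element reads on the opposite strand) and chr6:7693210-7693272 (minus strand).
Chac1: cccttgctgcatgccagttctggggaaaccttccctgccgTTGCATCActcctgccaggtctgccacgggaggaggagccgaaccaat
Asns: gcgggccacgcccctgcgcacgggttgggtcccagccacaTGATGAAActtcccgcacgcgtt
Atf3 and Herpud1 also held the element. Atf3 was lower, and Herpud1 overlapped between groups at 23.3 to 32.6 against 26.7 to 39.1 CPM (named after its values were seen).

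Glycolysis genes were lower for 16 of 18 members, 3 of them apart, with a median of -0.31 (-0.22 corrected for length). It was -0.18 without WT 2 and -0.46 without WT 3. Aldoa, an aldolase, was at 1960, 2160 and 1770 against 1500, 1430 and 1410 CPM and Hk3, a hexokinase of myeloid cells, at 661 to 923 against 484 to 523 CPM. WT 3 lay with the libraries labelled LysM-DKO for Pkm and Ldha. In the NRF2 list, 9 of 16 genes were higher and 7 lower (median 0.13, 0.02 corrected). Prdx1, a peroxidase, lay apart lower at 3410, 4000 and 2440 against 1510, 1130 and 2120 CPM, and Osgin1, a stress-induced growth inhibitor, apart higher at 17.5, 14.5 and 11.7 against 24.2, 31.5 and 21.2 CPM. In all 3 members lay apart lower and 1 apart higher, and the median was -0.06 without LysM-DKO 3.

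Genes of cell division were lower on average, with wide ranges inside both groups. All 20 mitosis genes were lower with a median of -1.05 (-1.31 corrected for length, -1.72 without LysM-DKO 3), yet none lay apart. The deviation of the list ran from -0.49 (WT 3) to 1.34 (WT 1) in WT and from -1.28 (LysM-DKO 1) to 0.28 (LysM-DKO 3) in the other group. Mki67, the Ki-67 antigen, was at 26.5, 27.7 and 8.93 against 5.91, 12.7 and 19.8 CPM. DNA replication genes gave a median of -0.25, which turned to 0.08 if WT 1 was left out and to -0.52 if LysM-DKO 3 was.

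Immune gene lists varied widely within each group. The MHC class II list deviated by 1.81 in WT 2 and 0.77 in LysM-DKO 2 and by -1.56 in LysM-DKO 1. Its median of -0.74 became 0.41 without WT 2 and -1.34 without LysM-DKO 2. H2-Aa, an MHC class II chain, was at 120, 523 and 103 CPM in WT and at 41.7, 254 and 160 CPM in the libraries labelled LysM-DKO. Interferon response genes were also highest in WT 2 and lowest in LysM-DKO 1 (deviations 1.2 and -1.16), but LysM-DKO 3 was the highest of its group (0.63). Their median of -0.20 moved to 0.28 if WT 2 was left out and to -0.96 if LysM-DKO 3 was, and the preset members overlapped (Isg15 2.92 to 9.33 against 2.86 to 10.6 CPM). Oasl1, an interferon-induced gene that limits Irf7 translation, was the exception, at 12.3, 17.4 and 7.17 against 3.39, 3.22 and 4.47 CPM (edgeR adjusted p = 0.213, DESeq2 adjusted p = 0.000608). Arg1, the marker of alternative activation, spanned 2.07 to 570 CPM in WT and 0.388 to 88.5 CPM in the other group.

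A few immune and matrix genes separated the groups in all libraries. The chemokine Ccl3 was at 56.5, 50.5 and 28.3 against 23.9, 15.5 and 16.5 CPM. The list of chemokines and their receptors leaned the other way, with 12 of 19 genes higher and 7 lower. In that list 2 genes lay apart higher and 1 apart lower, and the median was 0.56 (-0.13 without LysM-DKO 2). C1qa, a chain of the complement starter C1q, was at 364, 514 and 269 against 987, 1300 and 515 CPM. WT 2 and LysM-DKO 3 almost met for C1qa, and C1qb and C1qc overlapped. Of 15 tested complement genes, 1 lay apart higher and 0 apart lower, against 11.0% and 9.98% over all genes. Plaur, the urokinase receptor, was at 314, 209 and 159 against 96.7, 39.8 and 54.7 CPM (log2 fold change -1.83 ± 0.363 SE, edgeR adjusted p = 0.213, DESeq2 adjusted p = 9.91e-05). Timp1, an inhibitor of matrix proteases, was higher at 7.33, 3.70 and 8.39 against 35.0, 25.4 and 62.2 CPM. The matrix proteases Mmp9 (51.9 to 146 against 11.4 to 39.8 CPM) and Mmp12 (6840 to 11300 against 2900 to 5620 CPM) lay apart lower, and the other matrix metalloproteases of the list overlapped. Over all 18 matrix genes 10 were lower and 8 higher, Plaur and these proteases were the 3 apart lower and Timp1 was the 1 apart higher. DESeq2 called 2 in each direction, and the median of -0.09 was 0.07 with library sizes alone, -0.30 without WT 1 and 0.10 without WT 2.

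Markers of other cells moved with some libraries. Of the B cell list, 9 of 10 tested genes were lower and 4 lay apart lower and were called by DESeq2, all at low levels (Cd79a 2.87, 9.55 and 1.22 against 0, 0.341 and 0.275 CPM), and the median of -3.86 was -2.21 without WT 2. The summed level of the list, 119 to 161 against 101 to 137 CPM, overlapped because Cd22 made up most of it. Mesothelial markers summed to 9.24 to 47.6 CPM in WT and 6.23 to 91.0 CPM in the libraries labelled LysM-DKO, and the collagen-led fibroblast list to 792 to 1000 and 722 to 1820 CPM, highest in LysM-DKO 3. The sums of 4 other marker lists were lower in the libraries labelled LysM-DKO without overlap. Eosinophil markers summed to 15.8 to 30.2 against 3.17 to 14.1 CPM, nearly all of it Siglecf (13 to 29.6 against 2.29 to 12.9 CPM), a lectin of eosinophils and some macrophages, with Epx at 0 and Prg2 at no more than 3 counts. Il5ra, the interleukin-5 receptor, lay apart lower at 0.207 to 1.02 against 0 to 0.125 CPM. Neutrophil markers summed to 90.0 to 135 against 64.2 to 86.8 CPM, mostly Csf3r, whose own levels overlapped, and 6 of the 10 listed genes had no more than 3 counts in any library. Dendritic cell markers summed to 6.73 to 16.7 against 4.26 to 5.72 CPM. Of these Batf3 (4.68 to 8 against 1.61 to 2.79 CPM; DESeq2 adjusted p = 0.0255) and Ccr7 (0.0586 to 0.193 CPM against 0) lay apart lower. Endothelial markers summed to 91.4 to 117 against 63.2 to 89.1 CPM, most of it Vwf (73.6 to 97.2 against 43.6 to 69.7 CPM), with Cldn5 at 0, and their median of -0.12 turned to 0.26 if LysM-DKO 1 was left out. No gene of these 4 lists was called by edgeR. In bulk RNA, fewer cells of a type and less RNA per cell cannot be told apart. The part of these cells in the differences above was not tested.

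**Figure D5:**
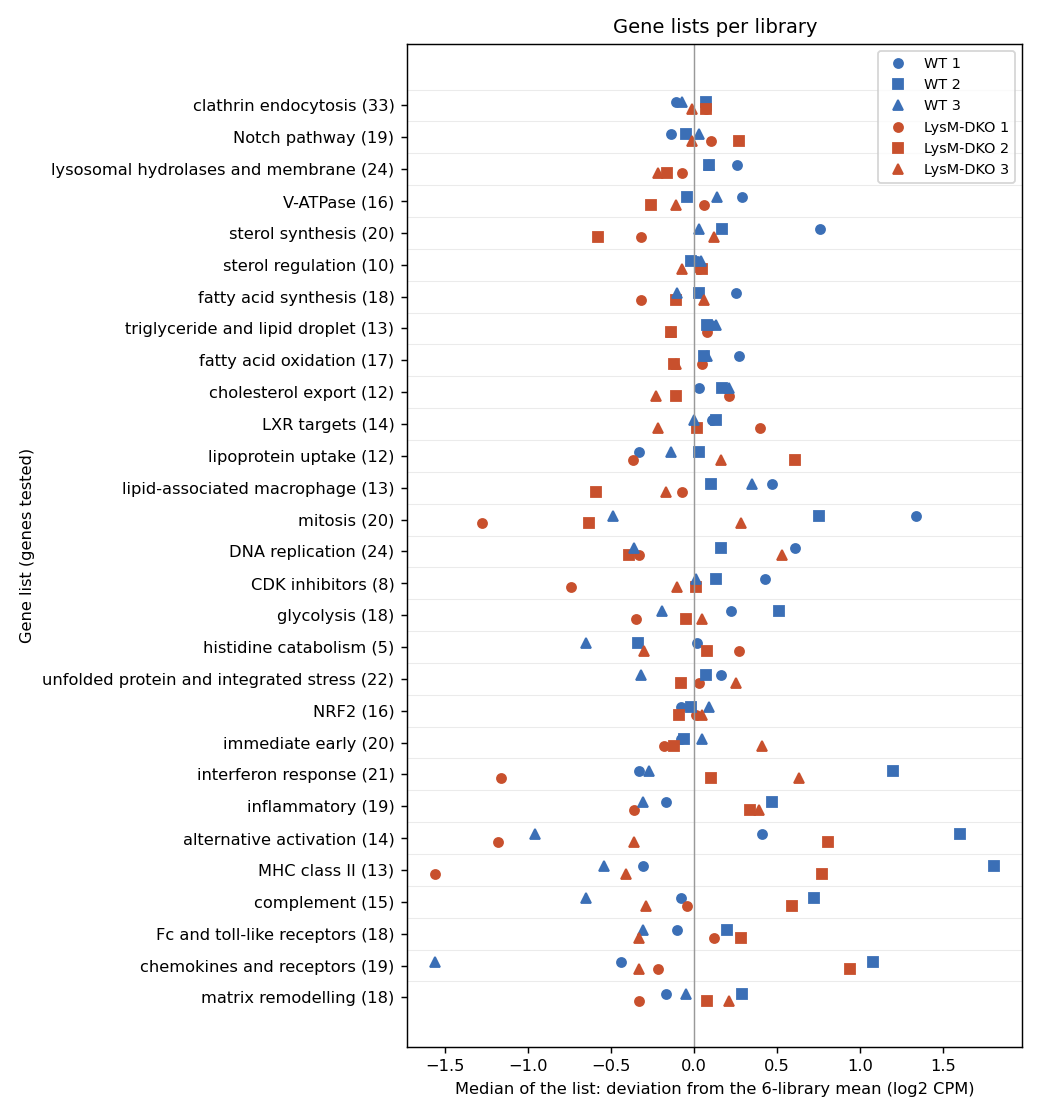
Median deviation of each gene list other than the cell type markers from the 6-library mean (log2 CPM) in the 3 WT and 3 LysM-DKO libraries. Among the lists shown, the lysosomal, fatty acid oxidation and lipid-associated lists separate the groups, whereas MHC class II and alternative activation follow WT 2 and LysM-DKO 2 on the high side and LysM-DKO 1 on the low side.

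Over the 43 lists with tested genes, cell type lists included, 6 had library medians that did not overlap between groups. All 6 were lower in the libraries labelled LysM-DKO. These were the lysosomal, fatty acid oxidation and lipid-associated lists and the marker lists of neutrophils, eosinophils and endothelial cells. The macrophage list made it 7 after correction for length. Over single genes, 11.0% lay apart higher and 9.98% apart lower, and whether lists lay apart more often than genes was not tested. The neutrophil, eosinophil and endothelial lists held only 4, 3 and 6 tested genes. Their endothelial medians barely cleared each other, at 0.02 in WT 1 and 0.01 in LysM-DKO 3. With library sizes alone the list medians rose with that of all genes, the lysosomal one to -0.14, V-ATPase to -0.11, sterol synthesis to -0.51, lipid-associated to -0.36, fatty acid oxidation and cholesterol export to -0.05 each and glycolysis to -0.15. Single libraries stood apart for some abundant genes. LysM-DKO 2 held 279 CPM of the scavenger receptor-like Fcrls (6.55 to 28.8 in the other libraries) and 1030 CPM of Stab1. LysM-DKO 3 was high in Tgfbi (171 against 20.2 to 48.5 CPM) and Dusp1 (164 against 34.5 to 55.1), and low in Apoe. WT 3 was low in Pld4 (25.7 against 133 to 411 CPM) and C3 (60.2 against 177 to 322).

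The genes around the loci of the label were examined last. Over all tested genes, 11.0% lay apart higher and 9.98% apart lower, and DESeq2 called 0.803% higher and 1.36% lower. Within 5 Mb of Epn1, 8 of 63 tested genes lay apart higher and 14 apart lower (34.9% in all), and 3 were called by DESeq2 (4.76%). Around Epn2 15 of 98 genes and around Lyz2 6 of 38 genes lay apart in either direction (15.3% and 15.8%). DESeq2 called 1 gene around Epn2 (1.02%) and 2 genes around Lyz2 (5.26%). Over chromosomes with at least 100 genes, the share called by DESeq2 ranged from 1.09% on chromosome 9 to 3.57% on chromosome 12. This layout by position was chosen after the data were seen and was not tested.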

How the data were processed

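RNA from 8 mouse macrophage libraries was sequenced. The deposited files hold whole-number read counts by gene symbol, made by the authors with HTSeq's counter, and per the submitters' processing notes the work used STAR 2.7.9a, TopHat, HTSeq 0.11.2, DESeq2 1.30.1, limma and build mm10. Strand setting and annotation are not given in the sources used here, so overlapping genes are uncertain. Each file lists 24421 symbols, of which 6588 had no count in any library. The special lines of the counter were left out: reads outside genes were 4.26 to 6.07% and multiply aligned reads 2.65 to 3.01% of counted reads in the 6 libraries compared.

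Counts were fitted with edgeR 4.0.16 in R 4.3.3 (filterByExpr, TMM scaling, robust quasi-likelihood F test, all 8 libraries, a term per group), which left 13821 genes and 5 residual degrees of freedom. Calls needed a p under 0.05 after Benjamini-Hochberg adjustment over all genes tested. DESeq2 1.42.0 was an alternative among 17. A correction for transcript length and GC content (GENCODE models of the same build, 13312 genes matched) and a fit without robust spread were added after the data were seen. On simulated data for this comparison, 23.2% of genes changed 2-fold and 90.8% of those changed 4-fold were recovered among 13475 and 13468 genes. False calls averaged 2.5 and 11 per run. The changed genes were drawn from those with a WT mean above 5 CPM, so recovery of lower genes was not tested.

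The members, gene lists and tests were chosen with earlier results of these data known. Named are Epn1, Epn2, Epn3, Lyz2, Lyz1 and Abcg1, every called gene, and the 10 higher and 10 lower genes of smallest edgeR p that do not overlap between groups, reach a mean of 10 CPM, are called by DESeq2 and keep their sign when any library is left out. From each of 44 lists, 3 preset members and up to 3 of smallest p may be named, and for each library the 5 genes of at least 50 CPM that lie farthest from the other libraries. Any other named gene was chosen after its values were seen. Genes with no more than 3 counts in each library of either group are given as levels, with no fold. Promoters came from RefSeq. Some genes that this rule selects are not reported here.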

Additional observations from a re-analysis of the deposited data

How the results depend on the processing

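The count of 5 calls was the same with RLE scaling or library size alone, and 6 without a count filter. It was 299 in DESeq2 (111 higher, 188 lower), 3 with a mean of at least 1 CPM, 8 with both groups alone, 3 without robust spread and 1 after correction for length and GC content. Leaving out 1 library gave 0 to 8 calls. With the replicate number as a block 0 genes were called by edgeR, with 1520 at an unadjusted p under 0.05. Same-numbered libraries had correlations of 0.0413, 0.426 and -0.0145 in their deviations, and differently numbered ones -0.292 to 0.225. The value of 0.426, between WT 2 and LysM-DKO 2, was the highest of all pairs. Deviations from means of 3 libraries cannot settle whether the numbers pair the samples, and this was not tested. Genes that lay apart numbered 2902, and 3769 to 5107 when a library was left out (higher 1805 to 2814, lower 1920 to 2293). With fewer libraries, groups lie apart more easily, so these larger counts cannot be set against 2902. With library size alone 3001 were higher and 695 lower, because this scaling moves the median of all genes from 0.02 to 0.17. Epn2 turned to -0.02 after length correction and ranged from -0.31 to 0.40 without single libraries. Abcg1 ranged from -0.60 to 0.11 and turned positive without LysM-DKO 3. Genes as low as Epn3 cannot be ranked at this depth. Groups of 3 libraries were not tested for outliers. The NK cell list had no tested gene at a mean of at least 1 CPM and so no value there.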
